A study of Mus musculus with 12 samples.

Results

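Transcript levels in the gastrocnemius muscle of ERRα-null mice were compared with those of wild-type mice 2 h after both had run on a treadmill until exhausted. The comparison rests on the 3 arrays titled as ERRα-null after exercise and the 3 titled as wild type after exercise, 6 of the 12 arrays in the series. The other 6 arrays, 3 of each genotype, come from sedentary mice that did not run. All mice are labelled FVB males and were 2 to 3 months old, the wild-type mice carry no stated allele, and the labels do not say how the ERRα-null allele was made or whether littermates were used. The labels call the 3 arrays in each group biological replicates. The source-name label gives another exercise state than the title for the exercised wild-type and sedentary ERRα-null arrays, and groups were taken from the titles. How far or how long each genotype ran is not given in the sources used here, so that genotype and amount of running cannot be told apart. Each array is an Affymetrix Mouse Gene 2.0 ST array, which reads whole transcripts with short probes, and its deposited values are log2 expression levels on which a difference of 1 is a doubling.

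Esrra encodes ERRα, estrogen-related receptor alpha, a nuclear receptor that binds DNA without a known natural hormone and works with the coactivators PGC-1α and PGC-1β. In muscle and heart it is known for activating genes of fatty acid oxidation, the tricarboxylic acid cycle and the respiratory chain. Running to exhaustion raises PGC-1α, heat shock chaperones and stress-response transcripts in muscle within hours.

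Of 13308 genes tested with limma, 50 passed for genotype after exercise at a Benjamini-Hochberg adjusted p under 0.05, which is 0.376% of the genes. Of these, 38 were lower in ERRα-null muscle (0.286% of genes) and 12 were higher (0.0902%). The 38 lower genes included 15 members of mitochondrial lists (respiratory chain, pyruvate and tricarboxylic acid cycle, fatty acid oxidation, import, fusion, iron-sulfur clusters) and 17 genes that exercise raised in wild-type muscle. Ciapin1, which the iron-sulfur list holds although it acts in the cytosolic pathway, belongs to both sets. No overlap between the genotypes was seen for any of the 50 genes. They were chosen on these same arrays, so this lack of overlap, here and for single called genes below, is no separate support. Of all genes tested 16.0% had no overlap and 10.4% had an unadjusted p under 0.05. Just inside the threshold lay Tex2, Fbxl22 and Ubr2 (adjusted p = 0.0483, 0.0484 and 0.0498, limma), and just outside it Ndufa8, Cetn2 and Srxn1 (0.0512 each). With the replicate number as a block on the exercised arrays, a pairing that the labels do not state, Cetn2, a centrin, passed (0.70, adjusted p = 0.0413). The set is sensitive to single arrays. Without exercised wild-type array 1, 2 or 3 the count was 3, 10 or 15, and without exercised ERRα-null array 1, 2 or 3 it was 17, 15 or 2. Cabcoco1 and Mfn1 are the 2 genes that passed without each exercised array in turn, so that each other call below is lost without at least 1 of them.

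**Figure D1:**
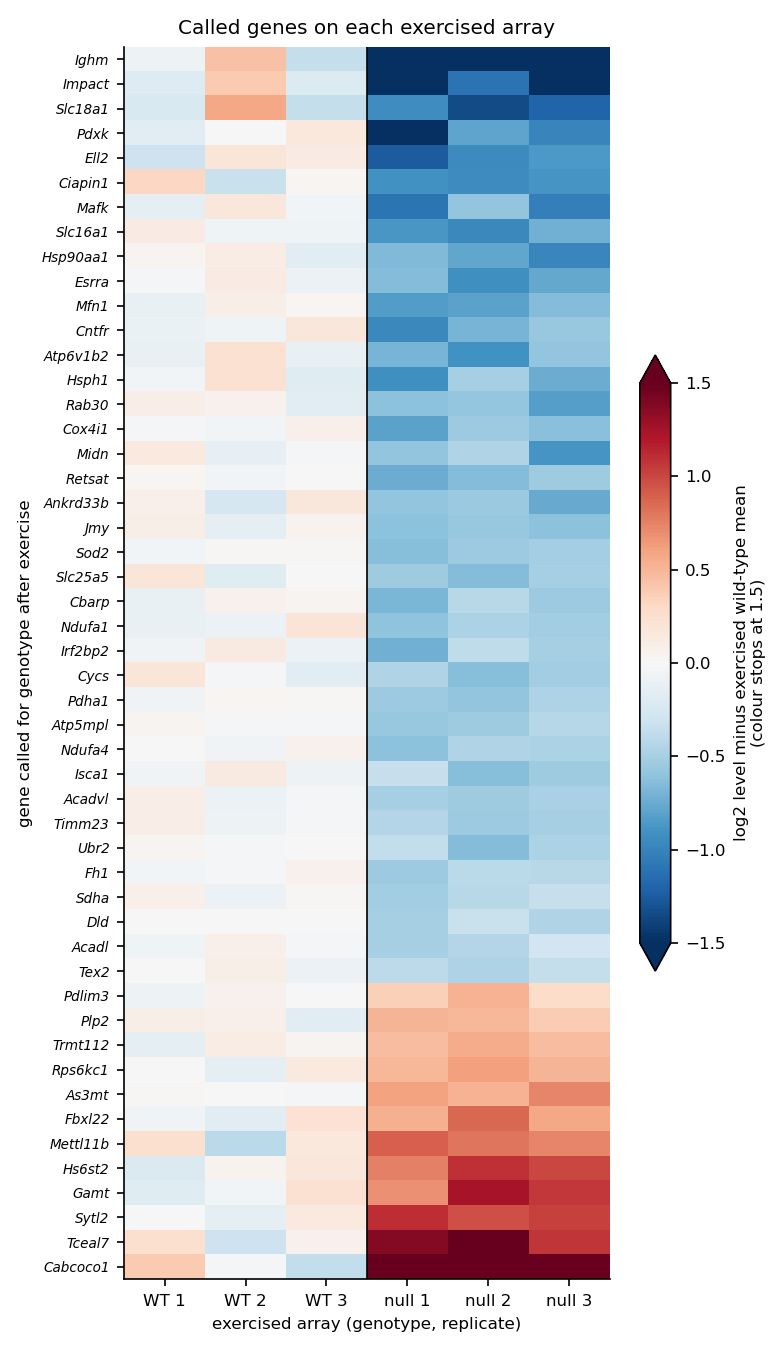
Level of each of the 50 called genes (rows) on each of the 6 exercised arrays (columns), as the log2 level minus the mean of the 3 exercised wild-type arrays, with colours that stop at 1.5 in either direction. The 38 lower genes are blue and the 12 higher genes red on all 3 ERRα-null arrays.

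Several arrays stood apart from their group. Xist, the transcript that silences an X chromosome in females, was at 7.90 on wild-type array 3 and at 7.82 and 7.83 on ERRα-null arrays 2 and 3, and at most 4.30 on the other 3 exercised arrays, although every mouse is labelled male. With this sex-chromosome profile as a covariate 28 of the 50 genes passed. Without the 3 arrays, which leaves 1 exercised ERRα-null array assumed to vary like the other groups, Cabcoco1, Impact and Pdxk were the called genes that still passed. Wild-type array 2 had the highest neutrophil marker mean (5.6 against 4.32 to 4.51 on the other exercised arrays) and the lowest smooth muscle and pericyte mean (7.86 against 8.51 to 8.59). The 9 muscle fibre markers, among them Ckm and Acta1, had means between 12.93 and 12.99 on every exercised array. Muscle is a mixed tissue, and in bulk RNA fewer cells of a type and less RNA per cell cannot be told apart.

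Esrra itself was at 7.47, 7.63 and 7.41 on exercised wild-type arrays 1 to 3 and at 6.85, 6.58 and 6.73 on the ERRα-null arrays. The genotypes did not overlap, but the signal on the ERRα-null arrays stayed well above the level of 5.32 under which genes were not tested. The difference was −0.78 ± 0.11 (SE, adjusted p = 0.0227, limma). It ran from −0.85 to −0.71 when single exercised arrays were left out and missed the threshold without wild-type array 1 or 2 or ERRα-null array 2 or 3 (adjusted p from 0.0537 to 0.0904), and with the exercised arrays fitted alone (adjusted p = 0.0638). Trmt112, which encodes an activator of RNA and protein methyltransferases and is the next protein-coding gene to Esrra in the RefSeq order, went the other way. It was at 9.57, 9.82 and 9.75 in wild type and at 10.18, 10.27 and 10.18 in ERRα-null muscle, higher on all 3 ERRα-null arrays (0.50 ± 0.08, adjusted p = 0.0227). Of the 14 tested genes within 10 protein-coding genes on either side of Esrra, Trmt112 is the 1 that passed. Of all genes tested 0.376% did.

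Promoter sequences from RefSeq (GRCm38.p6, 250 bases before to 50 after a transcription start) were found for 30 of the 38 lower genes and 10 of the 12 higher genes, and were searched on both strands. The letters AAGGTCA, the core that estrogen-related receptors bind, stood in the promoters of Isca1 and Timm23, which is 6.67% of the 30 lower genes against 3.87% of the 10426 tested genes with a promoter. The longer form TNAAGGTCA, which contains it, stood in none of the 30 and in 0.815% of all. Both matches belong to mitochondrial genes of the lower set and are shown with the core in capitals, on the strand of the gene. The Isca1 window is chr13:59769740-59770039 (minus strand, match beginning 135 bases before the start site). The Timm23 window is chr14:32201842-32202141 (minus strand, match beginning 14 bases after the start site).
Isca1: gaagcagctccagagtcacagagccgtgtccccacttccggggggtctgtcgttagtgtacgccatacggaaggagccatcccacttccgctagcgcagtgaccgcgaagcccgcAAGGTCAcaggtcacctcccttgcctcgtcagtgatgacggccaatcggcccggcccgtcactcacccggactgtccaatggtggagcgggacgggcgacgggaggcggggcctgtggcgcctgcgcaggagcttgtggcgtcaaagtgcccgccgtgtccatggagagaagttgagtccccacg
Timm23: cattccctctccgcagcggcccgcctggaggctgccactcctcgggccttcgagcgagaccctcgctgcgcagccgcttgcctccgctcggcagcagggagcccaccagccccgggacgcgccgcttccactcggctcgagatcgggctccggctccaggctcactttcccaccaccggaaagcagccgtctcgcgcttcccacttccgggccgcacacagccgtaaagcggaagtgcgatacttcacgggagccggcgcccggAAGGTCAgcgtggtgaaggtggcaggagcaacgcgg

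Among the lower genes that exercise raised in wild type, 12 have a promoter entry and none held AAGGTCA. A match describes letters in this window only and does not show that the receptor bound there.

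The respiratory chain lay lower in exercised ERRα-null muscle over nearly its whole length. Each of the 31 tested subunits of complex I, 13 of complexes II and III with cytochrome c, 12 of complex IV and 15 of complex V lay below wild type, with list medians of −0.29, −0.31, −0.25 and −0.31 log2 where the median of all 13308 genes was 0.0013 and 49.6% of them lay below. All ERRα-null arrays lay below all wild-type arrays for 27, 13, 8 and 13 of these subunits, against 9.31% of all genes. Few subunits passed the test over all genes, namely Ndufa1 of complex I, Sdha and Cycs of complexes II and III, and Ndufa4 and Cox4i1, listed with complex IV.

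Ndufa4, a small subunit that purifies with cytochrome c oxidase, was at 11.46, 11.41 and 11.53 in exercised wild type and at 10.85, 11.02 and 10.99 in ERRα-null muscle. All 3 ERRα-null arrays lay clearly under the wild-type arrays (−0.51 ± 0.08, adjusted p = 0.0227). Cox4i1, a regulatory subunit of the same oxidase, was at 10.61, 10.60 and 10.72 against 9.84, 10.10 and 10.02. The gap between the groups was wider than the spread within either (0.634-fold, adjusted p = 0.0473). Cycs, the mobile electron carrier cytochrome c, was at 12.44, 12.24 and 12.09 against 11.81, 11.62 and 11.73. The groups lie apart, with wild-type array 3 nearest to the ERRα-null arrays (−0.53 ± 0.10, adjusted p = 0.0483). Cycs has 5 probesets on the array and all 5 were lower, by −0.50 to −0.73.

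Ndufa1, a small membrane subunit of complex I, was at 9.71, 9.73 and 10.01 against 9.21, 9.34 and 9.29, with wild-type array 3 the highest (adjusted p = 0.0483, and 0.0502 with the replicate number as a block on the exercised arrays). Sdha, the flavoprotein that oxidises succinate in complex II, was at 11.43, 11.27 and 11.37 against 10.84, 10.94 and 11.01, with no overlap (−0.43 ± 0.07, adjusted p = 0.0358, and 0.0573 with the block). Atp5mpl, a small protein of the ATP synthase that stands on none of the lists, was at 9.54, 9.48 and 9.46 against 8.92, 8.96 and 9.07. Its arrays agree closely within each group and lie apart between them (−0.51 ± 0.09, adjusted p = 0.0423). Ndufa8 (−0.50), Ndufa5 (−0.56) and Ndufab1 (−0.38) of complex I, Uqcrq of complex III (−0.52), and Atp5g3 (−0.43) and Atp5pb (−0.46) of the ATP synthase did not pass, with adjusted p between 0.0512 and 0.130. With the block Ndufa8 did (adjusted p = 0.0314).

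Around the chain, the values were smaller. Of 40 tested assembly factors none passed, 36 lay below wild type and 19 without overlap, with a median of −0.17. Ndufaf4, an assembly factor of complex I, was at −0.59 (adjusted p = 0.0572, and 0.0413 with the block). Of 66 mitochondrial ribosomal proteins none passed and 59 lay below (median −0.12), with Mrpl34, Mrpl12 and Mrpl51 at −0.34, −0.38 and −0.37. Over all mitochondrial lists together, 293 of 330 tested genes lay below wild type and 175 did so without overlap. Of all genes tested 49.6% lay below and 9.31% did so without overlap.

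Transcripts of pyruvate dehydrogenase and of the tricarboxylic acid cycle were among the lower ones. Pdha1, the catalytic subunit of pyruvate dehydrogenase that turns pyruvate into acetyl-CoA, was at 10.71, 10.79 and 10.78 in exercised wild type and at 10.21, 10.17 and 10.30 in ERRα-null muscle. The spread within each group was small beside the gap (0.691-fold, adjusted p = 0.0244). Dld, the dehydrogenase subunit shared by pyruvate and 2-oxoglutarate dehydrogenases, was at 10.62 on each wild-type array and at 10.12, 10.29 and 10.17 (adjusted p = 0.0358, and 0.0502 with the block). Every ERRα-null array lay under the common wild-type level. Fh1, the fumarase of the tricarboxylic acid cycle, was at 10.64, 10.65 and 10.75 against 10.14, 10.28 and 10.26, with no overlap (−0.46 ± 0.08, adjusted p = 0.0389). All 20 tested genes of pyruvate entry and the cycle lay below wild type, with a median of −0.27, and these 3 passed. Of the 20 genes 16 lay below without overlap, against 9.31% of all genes. Suclg1, a subunit of succinyl-CoA ligase, was at −0.49 (adjusted p = 0.0549, and 0.0493 with the block).

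Fatty acid oxidation showed the same direction for 24 of 25 tested genes, with a median of −0.26. Of these, 15 lay below without overlap, against 9.31% of all genes. Acadvl, which opens the oxidation of very long chains, was at 10.16, 9.98 and 10.05 against 9.57, 9.53 and 9.58. Both groups are tight and well separated (−0.50 ± 0.08, adjusted p = 0.0358). Acadl, the long-chain dehydrogenase, was at 10.55, 10.69 and 10.60 against 10.12, 10.17 and 10.33, with ERRα-null array 3 nearest to wild type (−0.41 ± 0.07, adjusted p = 0.0473, and 0.0611 with the block). Acads, for short chains, and Lpl, the lipase that frees fatty acids from circulating fat, were at −0.38 and −0.32 and did not pass. Retsat, the retinol saturase that is also linked to lipid handling, was at 7.77, 7.70 and 7.75 against 7.0, 7.09 and 7.21, with no overlap (0.642-fold, adjusted p = 0.0227).

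Genes that build and shape mitochondria were among the lower ones. Mfn1, a mitofusin that joins outer membranes, was at 9.87, 10.07 and 10.02 in exercised wild type and at 9.15, 9.18 and 9.34 in ERRα-null muscle. No ERRα-null array came near the wild-type range, and the call was kept without each exercised array (0.589-fold, −0.76 ± 0.09, adjusted p = 0.0151). The other fusion proteins Mfn2 (−0.20) and Opa1 (−0.23) did not pass, and 9 of 12 fusion and fission genes lay below wild type (median −0.15). Timm23, the channel of the inner-membrane import complex, was at 11.65, 11.48 and 11.53 against 11.11, 11.01 and 11.05. The groups lie apart (−0.50 ± 0.08, adjusted p = 0.0227), while the median of the 32 import and proteostasis genes was −0.11.

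Slc25a5, an ADP/ATP carrier, was at 10.37, 10.01 and 10.18 against 9.65, 9.54 and 9.69, with wild-type array 2 the lowest of its group (−0.56 ± 0.10, adjusted p = 0.0483). The solute carriers as a list did not share this: 17 of 31 lay below wild type, with a median of −0.04, and Slc25a4, the main ADP/ATP carrier of muscle, was at −0.23 and did not pass. Isca1, which assembles iron-sulfur clusters in mitochondria, was at 9.84, 10.03 and 9.82 against 9.55, 9.26 and 9.36, with no overlap (adjusted p = 0.0389, and 0.0779 with the block). Ciapin1, an electron carrier of the cytosolic iron-sulfur pathway, was at 8.49, 7.85 and 8.21 against 7.27, 7.24 and 7.30. The ERRα-null arrays were nearly equal and the wild-type arrays were spread (0.531-fold, −0.91 ± 0.14, adjusted p = 0.0227), and a dimmer second probeset was at −0.16. Of the 33 tested genes of coenzyme Q, heme and iron-sulfur cluster synthesis 29 lay below wild type, with a median of −0.17.

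**Figure D2:**
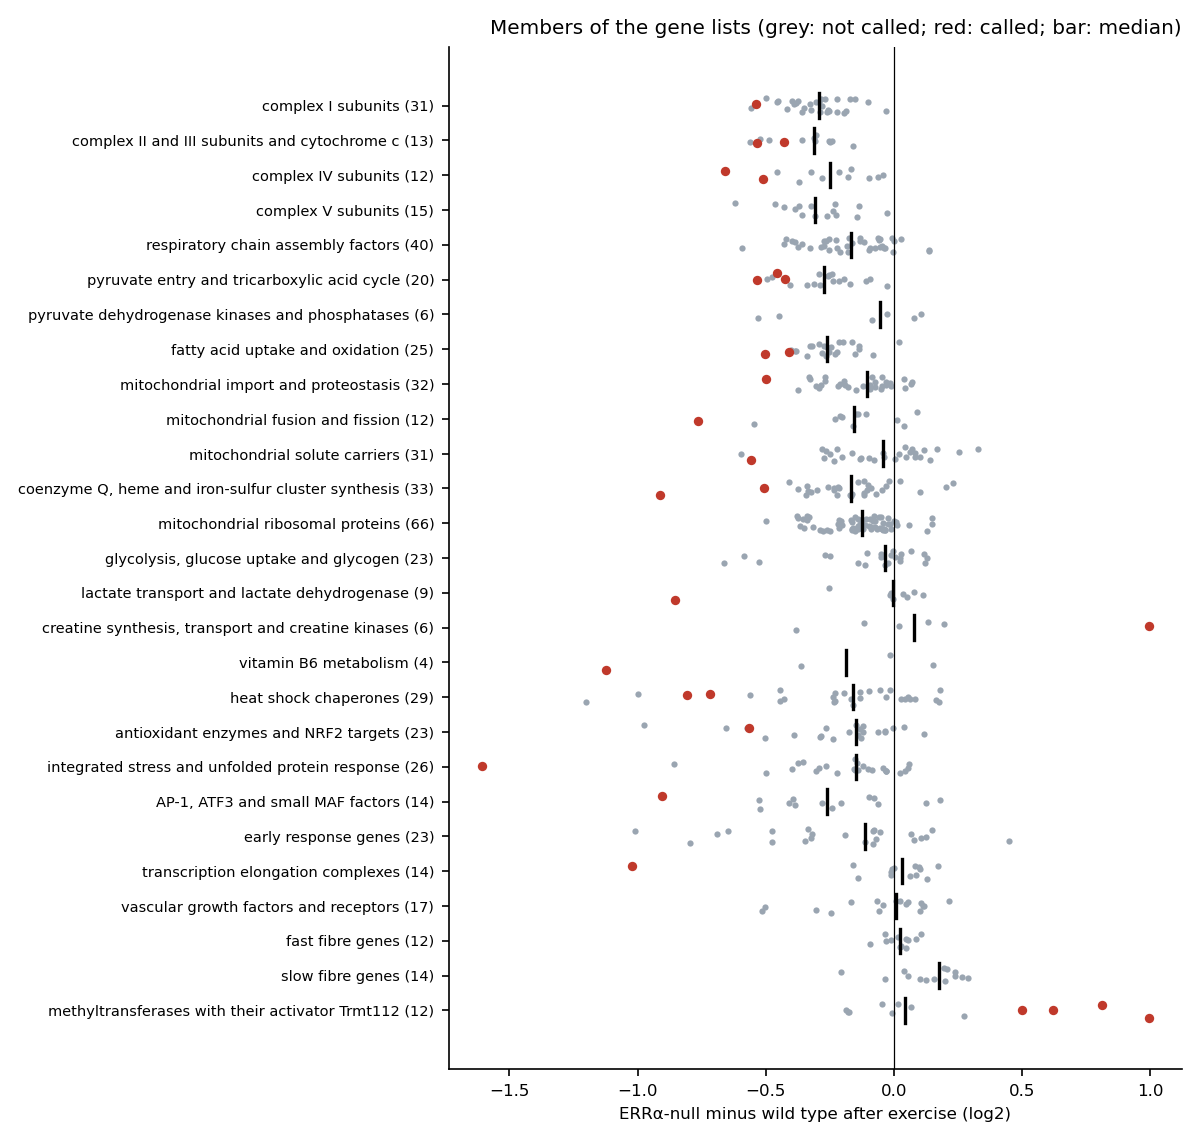
Difference between exercised ERRα-null and exercised wild-type muscle (log2, horizontal axis) for each tested member of 27 gene lists (rows, number of tested members in brackets), with called members in red, others in grey and the list median as a bar. All members of complexes I to V and of the tricarboxylic acid cycle list lie left of 0, while fast fibre genes centre on 0.03.

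The second set of lower genes had risen with exercise in wild-type muscle. These 17 genes were Impact, Slc18a1, Pdxk, Ell2, Ciapin1, Mafk, Slc16a1, Hsp90aa1, Cntfr, Atp6v1b2, Hsph1, Rab30, Midn, Ankrd33b, Jmy, Cbarp and Irf2bp2. After exercise they lay between −1.61 and −0.54 against wild type (median −0.75), and at rest between −0.71 and 0.24 (median −0.01). From rest to exercise they changed by 0.70 to 2.33 in wild type (median 1.07) and by 0.06 to 1.0 in ERRα-null muscle (median 0.44), where Cntfr, Midn and Hsp90aa1 passed. Exercise called 3.43% of all genes in wild type, 2.22% higher, and 0.639% in ERRα-null muscle. Both of these comparisons set sedentary arrays of male profile against exercised groups of mixed sex-chromosome profile. The exercise comparisons share the exercised wild-type or the exercised ERRα-null arrays with the one that chose the genes, so their values stand side by side and give no separate support. The test of the difference itself, the interaction of genotype and exercise, was passed by none of the 17 (limma, lowest adjusted p = 0.307, for Irf2bp2).

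Impact, a protein that restrains the amino acid sensor GCN2, was at 9.72, 10.31 and 9.71 in exercised wild type and at 7.85, 8.81 and 8.27 in exercised ERRα-null muscle. The groups lie nearly a log2 unit apart at their closest, and ERRα-null array 2 is the nearest to wild type (0.328-fold, −1.61 ± 0.21, adjusted p = 0.0227). Its resting mean was 7.58 in both genotypes, with SDs of 0.05 and 0.18 (n = 3). Among the other 25 tested genes of the integrated stress and unfolded protein responses none passed. Of the whole list of 26, 22 lay below wild type after exercise (median −0.15) and 10 did at rest (median 0.03). Atf4, the transcription factor that GCN2 signalling induces, was at 9.63, 9.69 and 9.63 against 9.29, 9.27 and 9.26. Its groups are tight and do not overlap, at a small difference (−0.38 ± 0.07, adjusted p = 0.0521).

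Heat shock chaperones were represented by Hsp90aa1 and Hsph1. Hsp90aa1, the inducible HSP90, was at 8.74, 8.81 and 8.54 against 8.03, 7.92 and 7.72, with no overlap (0.572-fold, −0.81 ± 0.14, adjusted p = 0.0358). Its level rose from rest in both genotypes, by 1.46 in wild type and 0.72 in ERRα-null muscle. Hsph1, a co-chaperone of HSP70, was at 9.31, 9.58 and 9.17 against 8.43, 8.86 and 8.61, also apart (−0.72 ± 0.13, adjusted p = 0.0398). Of the 29 tested chaperones 21 lay below wild type and 13 without overlap, against 49.6% and 9.31% of all genes. The list median was −0.16 after exercise and −0.01 at rest. Hspa1a and Hspa1b, near-identical genes of inducible HSP70 whose probes may read both, were at −1.0 and −1.20 and did not pass (adjusted p = 0.0697 and 0.124). With the block Hspa1a passed (adjusted p = 0.0413). At rest Hspa1a and Hspa1b lay above wild type (0.76 and 0.40), where neither passed.

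Transcription factors and regulators made up part of the set. Mafk, a small MAF protein that pairs with NRF2 or BACH1, was at 8.42, 8.72 and 8.51 against 7.45, 7.96 and 7.53. All ERRα-null arrays were lower, array 2 the least (0.534-fold, −0.90 ± 0.13, adjusted p = 0.0227). Ell2, a factor that helps RNA polymerase II elongate, was at 9.66, 10.15 and 10.09 against 8.72, 9.01 and 9.10. The groups lie apart, although a second, dimmer Ell2 probeset was at −0.09 (0.493-fold for the brighter one, adjusted p = 0.0358). Irf2bp2, a transcriptional corepressor, was at 9.29, 9.48 and 9.25 against 8.62, 8.96 and 8.84, with no overlap (−0.54 ± 0.10, adjusted p = 0.0473), and its resting value was 0.24 above wild type. Its dimmer probeset was at −0.10. Of 14 transcription elongation genes Ell2 alone passed (list median 0.03), and of 14 AP-1, ATF3 and small MAF factors Mafk alone did (list median −0.26, against 0.07 at rest).

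Metabolic and transport genes formed another part. Pdxk, the kinase that makes the active form of vitamin B6, was at 8.12, 8.28 and 8.43 in exercised wild type and at 6.69, 7.49 and 7.29 in ERRα-null muscle. ERRα-null array 1 is the lowest and no array overlaps (0.460-fold, −1.12 ± 0.17, adjusted p = 0.0227), while the resting means were 7.03 and 7.10. Slc16a1, the lactate carrier MCT1, was at 10.01, 9.83 and 9.83 against 9.02, 8.92 and 9.17. Both groups are tight and far apart, with a resting difference of −0.28. The other 8 tested genes of lactate transport and lactate dehydrogenase did not pass, and the list median was −0.003. Slc18a1, a vesicular monoamine transporter that is dim in muscle, was at 6.11, 6.92 and 5.98 against 5.40, 5.0 and 5.14, with wild-type array 2 the highest (0.449-fold, adjusted p = 0.0430, and 0.0779 with the block). Only its exercised wild-type mean (6.34) lay over 5.32, the level under which genes were not tested. Its means were 5.18 in exercised ERRα-null, 4.89 in sedentary wild-type and 5.04 in sedentary ERRα-null muscle. Slc18a1 was thus tested only through the group where it is high, and its call gives no support. With no filter on dim genes it missed the threshold.

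The remaining genes of the set act in signalling and vesicle traffic. Cntfr, the receptor for ciliary neurotrophic factor, was at 10.27, 10.30 and 10.54 against 9.40, 9.67 and 9.80, with no overlap (0.596-fold, adjusted p = 0.0227). At rest it lay about as far below wild type (−0.71 ± 0.12), and it rose by 1.04 and 1.0 with exercise in the 2 genotypes. Atp6v1b2, a subunit of the proton pump of lysosomes, was at −0.74 ± 0.12 (adjusted p = 0.0286, and 0.0607 with the block), with a dimmer probeset at −0.22. Rab30, a small GTPase of the Golgi, was at −0.67 and Jmy, a regulator of actin and of p53, at −0.60 (adjusted p = 0.0227 each). Midn, a nuclear protein that guides proteins to the proteasome (−0.64), Ankrd33b (−0.64) and Cbarp, a regulator of calcium channels (−0.55), passed with adjusted p of 0.0389, 0.0473 and 0.0473, and with the block they were at 0.0611, 0.0745 and 0.0502.

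**Figure D3:**
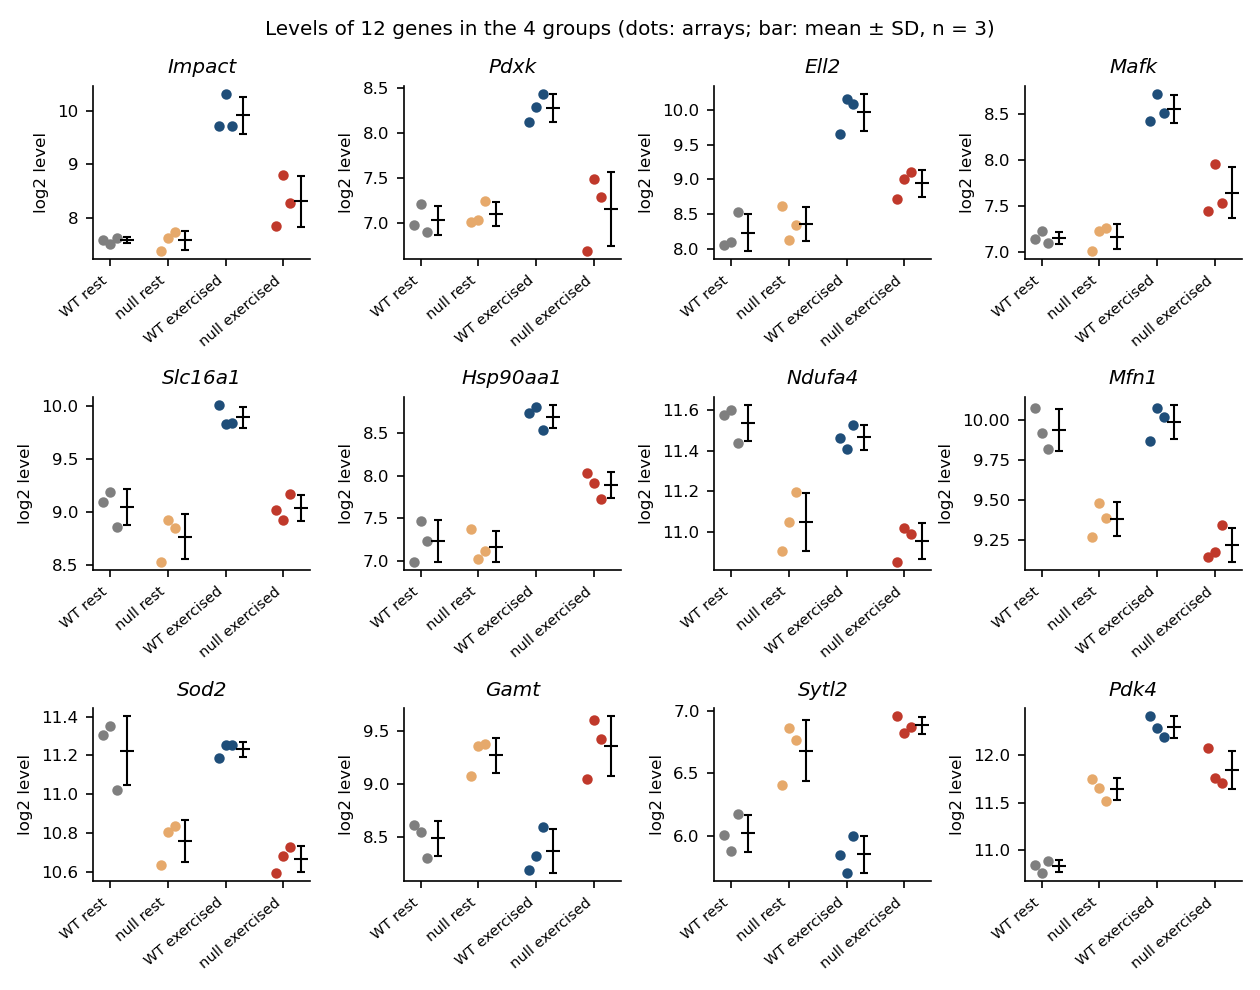
Log2 level of 12 genes (panels) on each array (dots) of sedentary and exercised wild-type and ERRα-null mice, with the mean ± SD of each group of 3. Impact, Pdxk, Ell2 and Mafk lie together at rest and are high on the exercised wild-type arrays, while Ndufa4, Mfn1 and Sod2 are lower in ERRα-null muscle in both states.

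Among antioxidant genes 1 was called, Sod2. Sod2, the superoxide dismutase of the mitochondrial matrix, was at 11.19, 11.25 and 11.25 in exercised wild type and at 10.59, 10.68 and 10.72 in ERRα-null muscle. The arrays agree within each group and do not overlap between them (0.676-fold, −0.56 ± 0.09, adjusted p = 0.0227), and at rest the difference was −0.47. Of the 23 tested antioxidant genes 21 lay below wild type and 12 without overlap, against 49.6% and 9.31% of all genes. The list median was −0.15 after exercise and −0.07 at rest. Hmox1, the heme oxygenase, was at 7.97, 8.11 and 7.68 against 6.44, 7.32 and 7.07. The groups lie apart with a wide spread in ERRα-null muscle (−0.98 ± 0.19, adjusted p = 0.0549). Srxn1 (−0.65) and Txnrd1 (−0.50), which repair oxidised thiol enzymes, did not pass (adjusted p = 0.0512 and 0.0572).

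Ighm, the heavy chain of immunoglobulin M made by B cells, had the largest fall. It was at 11.59, 12.11 and 11.31 in exercised wild type and at 10.08, 8.13 and 9.05 in ERRα-null muscle, without overlap and with a wide spread among the ERRα-null arrays (0.167-fold, −2.58 ± 0.38, adjusted p = 0.0227). The other 6 probesets of Ighm were dimmer and lay between −0.30 and 0.31. Of the 5 B-cell and plasma-cell markers on the array 3 were tested and Ighm alone passed. The mean of the 5, Ighm included, ran from 5.79 to 6.02 in wild type and from 5.15 to 5.52 in ERRα-null muscle. Cd79a, which every B cell carries with its receptor, was at 4.89 to 5.47 on all 6 exercised arrays, and Cd79b, Ms4a1 and Jchain were at most 5.11, 3.72 and 4.01. The part of other cells in the Ighm value was not tested. The other lower genes were Ubr2, a ubiquitin ligase of the N-degron pathway (−0.50), and Tex2, a lipid-binding protein of membrane contact sites (−0.40, adjusted p = 0.0783 with the block).

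The 12 higher genes were mostly dim or moderate and differed in the same direction at rest, by 0.15 to 3.75. Cabcoco1 stood out at 5.52, 5.10 and 4.76 in exercised wild type and 9.25, 9.02 and 9.09 in ERRα-null muscle, a gap far beyond the spread of either group. Its wild-type means, 5.13 after exercise and 5.25 at rest, lay under 5.32, the level under which genes were not tested. Cabcoco1 was thus tested only through the ERRα-null arrays, and it also passed with no filter on dim genes. Tceal7, of a family related to elongation factor S-II, was at 6.78, 6.23 and 6.6 against 7.91, 8.68 and 7.61, with ERRα-null array 2 the highest (2.89-fold, 1.53 ± 0.26, adjusted p = 0.0358, and 0.0606 with the block). Sytl2, a RAB27 effector that docks vesicles, was at 5.85, 5.70 and 6.0 against 6.96, 6.82 and 6.87. Both groups were tight and lay apart (2.05-fold, 1.04 ± 0.13, adjusted p = 0.0160). Hs6st2, which adds sulfate to heparan sulfate chains, was at 5.61, 5.88 and 6.0 against 6.59, 6.93 and 6.83, again without overlap (1.94-fold, adjusted p = 0.0273).

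Of 12 tested genes in a list of methyltransferases with their activator Trmt112, 4 were higher: Gamt, Mettl11b, As3mt and Trmt112. The list was drawn up after these calls were known, so its count is no evidence about the class, and its median was 0.04. Gamt, which completes creatine synthesis by methylating guanidinoacetate, was at 8.19, 8.32 and 8.59 against 9.05, 9.60 and 9.43. The groups lie apart, with ERRα-null array 1 the lowest of its group (1.99-fold, 0.99 ± 0.15, adjusted p = 0.0227). The rest of the creatine list did not follow, with the transporter Slc6a8 at −0.12, the mitochondrial kinase Ckmt2 at −0.38 and a list median of 0.08. Mettl11b, an N-terminal protein methyltransferase, was at 7.63, 6.99 and 7.55 against 8.29, 8.19 and 8.12, with wild-type array 2 the lowest (1.76-fold, adjusted p = 0.0473, and 0.0522 with the block). As3mt, which methylates arsenic, was at 7.47, 7.44 and 7.43 against 8.05, 7.97 and 8.18. It lies on the chromosome of Esrra, 468 protein-coding genes away. On that chromosome 3 of 437 tested genes passed, Esrra and Trmt112 included, against 0.376% of all genes. Its wild-type arrays are almost equal and all ERRα-null arrays are higher (1.54-fold, adjusted p = 0.0227).

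The other higher genes were Fbxl22, Rps6kc1, Plp2 and Pdlim3. Fbxl22, an F-box protein of the muscle Z-disc, was at 6.37, 6.26 and 6.64 against 6.96, 7.29 and 7.0 (1.58-fold, adjusted p = 0.0484, and 0.0821 with the block). Rps6kc1, a kinase of the ribosomal S6 kinase family, was at 6.22, 6.07 and 6.36 against 6.71, 6.83 and 6.73 (1.46-fold, adjusted p = 0.0473, and 0.0751 with the block). Neither gene overlapped between the groups. Plp2, a membrane proteolipid, was at 0.47 with its second probeset at 0.30, and Pdlim3, a PDZ and LIM protein of the Z-disc, was at 0.38, the smallest called rise.

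The regulators of muscle metabolism other than Esrra did not pass. Ppargc1a, which encodes PGC-1α, was at 12.04, 11.80 and 12.15 in exercised wild type and at 11.38, 11.69 and 11.53 in ERRα-null muscle. The groups did not overlap (−0.46 ± 0.12, adjusted p = 0.141). At rest Ppargc1a lay above wild type (0.45 ± 0.12, adjusted p = 0.266, limma), and its interaction did not pass (adjusted p = 0.329). Ppargc1b, its relative PGC-1β, lay above wild type (0.58 ± 0.18, adjusted p = 0.236, and 0.0446 with the block). Esrrg, the related receptor ERRγ, overlapped between the groups (0.06 ± 0.13), Foxo1 was at −0.67 (adjusted p = 0.111, and 0.0235 with the block), and Tfam, which packages mitochondrial DNA, at −0.34. Of the 30 regulators tested, 18 lay below wild type, with a median of −0.07.

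Pdk4, the kinase that switches pyruvate dehydrogenase off, is the 1 gene of 13308 (0.00751%) that passed for the interaction. After exercise it was at 12.41, 12.29 and 12.19 in wild type and at 12.08, 11.76 and 11.71 in ERRα-null muscle, lower without overlap (−0.45 ± 0.10, adjusted p = 0.0713, and 0.0413 with the block). At rest the order was the reverse, with means of 10.83 ± 0.06 in wild type and 11.64 ± 0.12 in ERRα-null muscle (SD, n = 3). The difference between the states was −1.26 ± 0.14 (adjusted p = 0.0121, limma). It missed the threshold without sedentary wild-type array 2, sedentary ERRα-null array 2, exercised wild-type array 1 or 2, or exercised ERRα-null array 3, and without the 3 arrays of female profile.

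Early response genes mostly lay below wild type, and none passed. Of 23 tested early response genes 17 lay below and 4 did so without overlap, against 49.6% and 9.31% of all genes. Above wild type without overlap lay 1, and the list median was −0.11, against 0.27 at rest. Csrnp1, a nuclear protein of this class, was at −0.69 (adjusted p = 0.0558, limma), and the orphan receptor Nr4a2 was at −1.01 ± 0.40 (adjusted p = 0.391). Glycolysis and glycogen genes centred on −0.03, with Hk2, the insulin-regulated hexokinase, at −0.59 and Ppp1r3c, a glycogen-targeting subunit of protein phosphatase 1, at −0.66 (adjusted p = 0.111 and 0.0702, and 0.0171 for Ppp1r3c with the block). Vegfa, the growth factor of capillaries, was at 10.82, 10.60 and 10.32 against 10.17, 10.14 and 9.92. Its groups did not overlap (−0.50 ± 0.12, adjusted p = 0.118, and 0.0450 with the block), while the median of 17 vascular genes was 0.01 and the endothelial marker mean was lowest on wild-type array 2 (7.27 against 7.66 to 8.01).

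No fibre-type gene was called. The 12 fast fibre genes had a median of 0.03 after exercise and 0.02 at rest. Of the 14 slow fibre genes 12 lay above wild type after exercise (median 0.18) and 11 did at rest (median 0.33). Mybpc1, the slow myosin-binding protein C, was at 12.18, 12.08 and 12.32 against 12.41, 12.42 and 12.47, higher on all ERRα-null arrays by a margin under the threshold (0.24 ± 0.08, adjusted p = 0.307).

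The sedentary arrays do not enter the difference after exercise, but they entered the filter on dim genes and the spread used for the calls. The values at rest are thus not independent of the choice of genes. On the sedentary arrays the direction was kept for 31 of the 38 lower and all 12 higher genes. Of all genes 50.4% lay below wild type at rest. At rest 22 of the 38 lower genes had no overlap (6.53% of all genes lay below without overlap) and 10 of the 12 higher genes had none (6.91% above). Esrra and Cabcoco1 are the 2 that also passed at rest, where 11 genes did (0.0827%). The members of the mitochondrial lists in the lower set, which include Ciapin1 but not Sod2 or Atp5mpl, were all below wild type at rest. Their median was −0.38 at rest against −0.51 after exercise. None of the 50 genes passed for the interaction, and 23 had an unadjusted interaction p under 0.05 where 5.12% of all genes did, having been chosen on 1 of the 2 differences that the interaction subtracts.

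**Figure D4:**
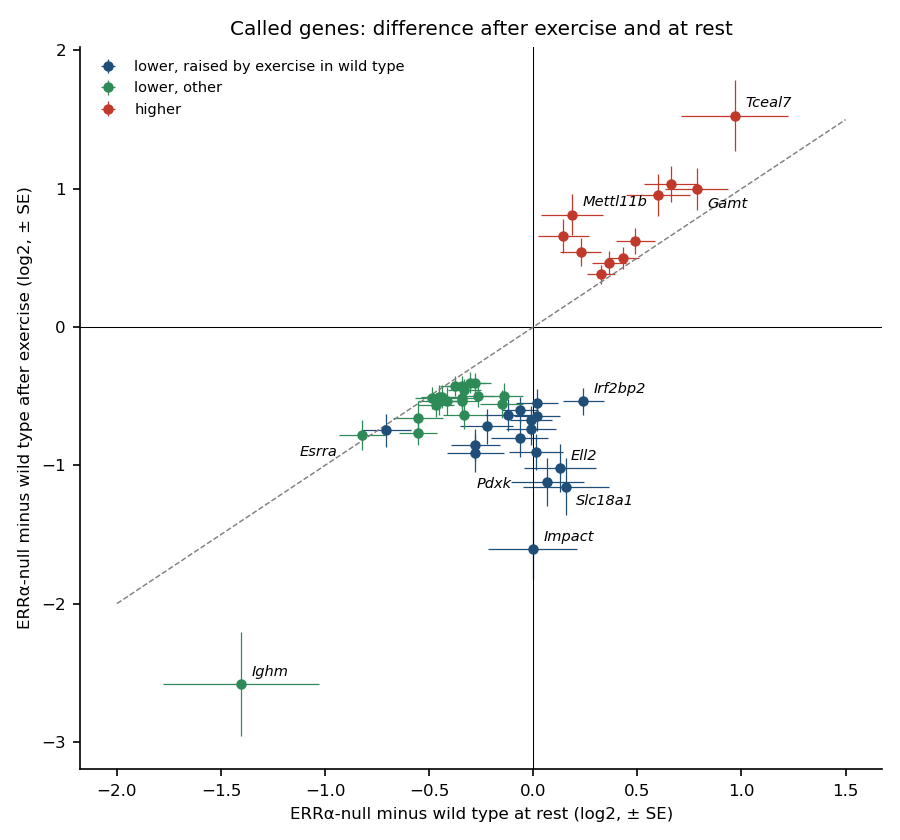
Difference between ERRα-null and wild-type muscle after exercise (vertical axis, log2 ± SE) and at rest (horizontal axis, log2 ± SE) for the called genes, with equal differences on the dashed line and Cabcoco1 (3.99 and 3.75) beyond the axes. Genes that exercise raised in wild type (blue) lie between −0.71 (Cntfr) and 0.24 (Irf2bp2) at rest with a median of −0.01, the other lower genes (green) lie left of 0 and the higher genes (red) right of it.

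Markers of other cells were read on the same arrays, and their part in the results was not tested. Liver markers, which gastrocnemius should lack, had means from 5.79 to 7.49 in exercised wild type and from 5.68 to 6.71 in ERRα-null muscle, with Alb from 6.99 to 10.64. Adipocyte markers ran from 7.05 to 7.55 and from 6.91 to 7.59, and fibroblast markers from 9.35 to 9.82 and from 9.69 to 9.80. Liver, adipocyte and B-cell scores were also fitted as covariates. With them 11 of the 15 genes of mitochondrial lists and 12 of the 17 genes raised by exercise in wild type passed. Of the 12 higher genes 7 did, and the medians of these sets were −0.53, −0.75 and 0.68. The B-cell score includes Ighm and was lower on every exercised ERRα-null array than on any exercised wild-type array. It is thus partly genotype itself, and this fit cannot separate genotype from cell content. Without wild-type array 2 the medians were −0.54, −0.76 and 0.62, with 2, 4 and 3 genes passing. With the sex-chromosome profile as a covariate they were −0.50, −0.73 and 0.71, with 9, 9 and 7 passing, and without the 3 arrays of female profile they were −0.52, −0.89 and 0.72, with 0, 2 and 1 passing.

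**Figure D5:**
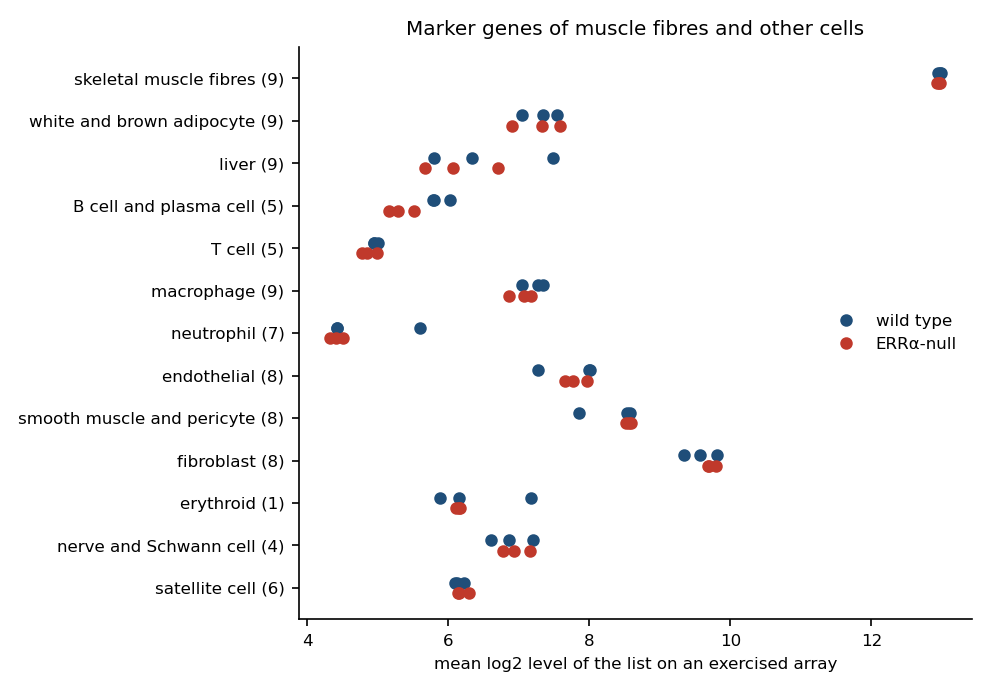
Mean log2 level of each marker list (rows, number of genes on the array in brackets) on each exercised array, with wild type in blue and ERRα-null in red. Muscle fibre markers coincide near 12.9, the mean of the 5 B-cell markers, which include Ighm, is lower on all 3 ERRα-null arrays, and wild-type array 2 stands apart for neutrophil, smooth muscle and erythroid markers.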

How the data were processed

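RNA of gastrocnemius muscle was hybridised to 12 arrays, 3 in each of 4 groups. The deposited values are log2 expression levels, 1 column per array, made by the authors with Affymetrix Expression Console, Transcriptome Analysis Console and RMA, per the submitters' processing notes. Not given in the sources used here are versions and build. RMA gives all arrays a common distribution, so each difference is relative to the bulk of transcripts. Exercised arrays had medians of 5.20 to 5.26 and pairwise correlations of 0.976 to 0.987, none were identical, and precision is limited by the number of arrays.

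Of 41345 probesets, 23521 carry 1 gene symbol, 1814 several and 16010 none, and 23328 of the first matched RefSeq (GRCm38.p6). For each of 22180 genes the single-symbol probeset of highest mean (12 arrays) was used (1082 genes have several). The dimmest 40% (mean under 5.32) were not tested, which left 13308. limma 3.58.1 in R 4.3.3 was fitted on the 4 group means over 12 arrays (8 residual degrees of freedom, eBayes with trend), tested on simulated data, with two-sided p-values adjusted by Benjamini-Hochberg over all tested genes. ± is the model's standard error unless SD is written.

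The members and lists were chosen with earlier results of these data known. Named genes are Esrra, all called genes, up to 4 members of each list with the smallest p, and listed regulators. The labels do not say whether replicate numbers pair arrays. Same-numbered exercised arrays of both genotypes deviated together (correlations of 0.312, 0.207 and 0.174), so the block was also fitted on them. Same-numbered sedentary arrays gave −0.232, −0.278 and 0.347. The block was thus chosen from these data and leaves fewer degrees of freedom than the main fit. Calls that it gains or ends are a description of sensitivity and no separate support. Alternatives were other filters, centring, variance models, probeset averaging, covariates and leaving out each array.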

Additional observations from a re-analysis of the deposited data

Results flagged for a closer look

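Pdk4 differed in its genotype effect between the states. ERRα-null minus wild type was 0.81 at rest and −0.45 after exercise, a difference of −1.26 ± 0.14 log2 (SE, adjusted p = 0.0121, limma with Benjamini-Hochberg adjustment, 3 arrays per group). Every resting ERRα-null array lay above, and every exercised one below, the wild-type arrays of its state.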

How the results depend on the processing

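The 50 called genes became 5 with the exercised arrays fitted alone, 23 with the replicate block over all arrays, 23 with no filter on dim genes, 95 with the stricter filter (60% of genes not tested), 17 without the intensity trend, 33 with probesets averaged per gene, 161 with array weights and 5 without the arrays of female profile. Leaving out single arrays gave 2 to 105, the latter without sedentary ERRα-null array 1. The replicate block on the exercised arrays gave 73 calls, kept 35 of the 50 and ended 15 calls. It changed no other call of a gene named above than those given beside it. Leaving out sedentary arrays was chosen after seeing the data. The interaction count of 1 became 2 with the sex-chromosome covariate and ran from 0 to 6 when single arrays were left out. Esrra ran from −0.85 to −0.71 when single arrays were left out, missed the threshold with the exercised arrays alone (−0.78, adjusted p = 0.0638, limma) and without the female-profile arrays (−0.70, adjusted p = 0.397). Esrrg ran from −0.003 without exercised wild-type array 2 (adjusted p = 0.999) to 0.11. The cause of these shifts was not tested. Fits on fewer arrays have fewer degrees of freedom, but several of the settings above leave out no array. Of the single-gene values, 2080 kept direction and side of the threshold, 632 missed it, 90 newly passed it and 1 turned.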
